A study of Lilium davidii var. unicolor with 6 samples.

Results

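The transcripts described here were abundant in control scales of the Lanzhou lily and stood at between 1/8 and 1/2 of that level in scales given methane-rich water. They number 125 of the 14140 transcripts measured. Each was chosen by 3 criteria: a mean over all 6 libraries of at least 50 counts per 1000000 estimated counts (CPM), a ratio of the mean in methane-rich water to the mean in control above 1/8 and at most 1/2, with 0.1 CPM added to both means, and a highest value in methane-rich water below the lowest control value. The choice therefore used the comparison of treatment with control, and the ratios and the separation of the groups are given as descriptions, with no test.

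The scales came from bulbs of Lilium davidii var. unicolor, an edible lily, and were detached, soaked for 3 h in the liquid of their group and set in moist perlite and vermiculite. Control scales were soaked in and then watered with distilled water (n = 3 libraries), and treated scales with 100% methane-rich water (MRW, n = 3), every 3 days. Scales of both groups were frozen after 10 days, which were spent in the dark. The labels name biological replicates of 40 scales each, with no genotype beyond the variety, no age of the bulbs and no batch of culture, extraction or sequencing. Spread between libraries thus covers pools of scales together with any differences in handling, which cannot be told apart. Library totals ran from 20988773 to 28031469 estimated counts in control and from 22154105 to 27073860 in MRW.

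A detached lily scale is a storage leaf that lives on its own starch and sugars while new bulblets arise at its cut base, a process governed by hormones such as auxin, cytokinin and gibberellin. Methane-rich water is water charged with methane gas, applied in plant studies as a watering treatment. The features measured carry identifiers in the form used for full-length transcripts from long-read sequencing, in which the number after f counts the full-length reads behind a sequence. The table pairs no row with a gene name or a sequence, and several rows may come from 1 gene. Functions, pathways, tissue markers and sequences are therefore not reported here, and transcripts are told apart by length, reads and level.

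As a group, the 125 members took a much smaller part of the counts in MRW scales. In control replicates 1 to 3 their summed share was 1.79%, 1.81% and 1.83%, and in MRW replicates 1 to 3 it was 0.561%, 0.505% and 0.486%. The groups lay far apart, at 1.81% ± 0.0216 and 0.517% ± 0.0392 (SD, n = 3), which the rule itself ensures. The median member stood at 116, 123 and 119 CPM in the control libraries and at 37.1, 32.5 and 30.3 CPM in the MRW libraries. For the other 3235 transcripts with a mean of at least 50 CPM, the library medians ran from 98.6 to 102 CPM across both groups. In whole scales, fewer cells of a type that holds these transcripts and less RNA per cell cannot be told apart.

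**Figure D1:**
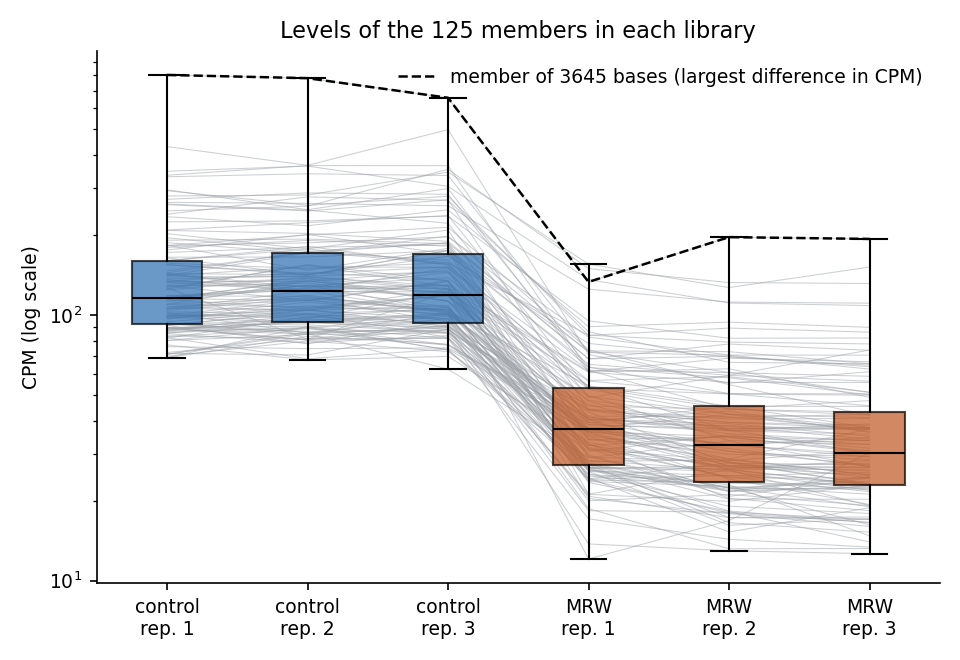
Level of each of the 125 members in the 6 libraries, in CPM on a log scale. Boxes span the quartiles with the median as a line, whiskers reach the lowest and highest member, each grey line joins the values of 1 transcript and the dashed line is the member of 3645 bases. The library medians lie between 116 and 123 CPM in control and between 30.3 and 37.1 CPM in MRW.

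The members made up 3.72% of the 3360 transcripts with a mean of at least 50 CPM. Without the limit on abundance, 711 of the 14140 transcripts (5.03%) met the criteria on ratio and separation. The mirror criteria, a ratio of at least 2 and below 8 with every MRW value above every control value, were met by 7 transcripts (0.208%). Separation of the groups without a limit on the ratio had no firm side. Of the 3360, 576 (17.1%) had every MRW value below every control value and 741 (22.1%) had every MRW value above, but with TMM factors the counts were 788 below and 481 above. The excess of large ratios on the lower side did not turn in this way, with 143 against 4 under TMM factors and 119 against 8 under upper quartile factors. On the log2 scale of the ratio, 119 transcripts lay between -1 and -0.5 and 101 between 0.5 and 1. Beyond these, 40 lay between -1.5 and -1 and 34 between -2 and -1.5, against 7 between 1 and 1.5 and 0 between 1.5 and 2. The counts further down were 35 between -2.5 and -2 and 17 between -3 and -2.5. The lower side thus held a nearly level stretch from -2.5 to -1, in which most members lie.

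**Figure D2:**
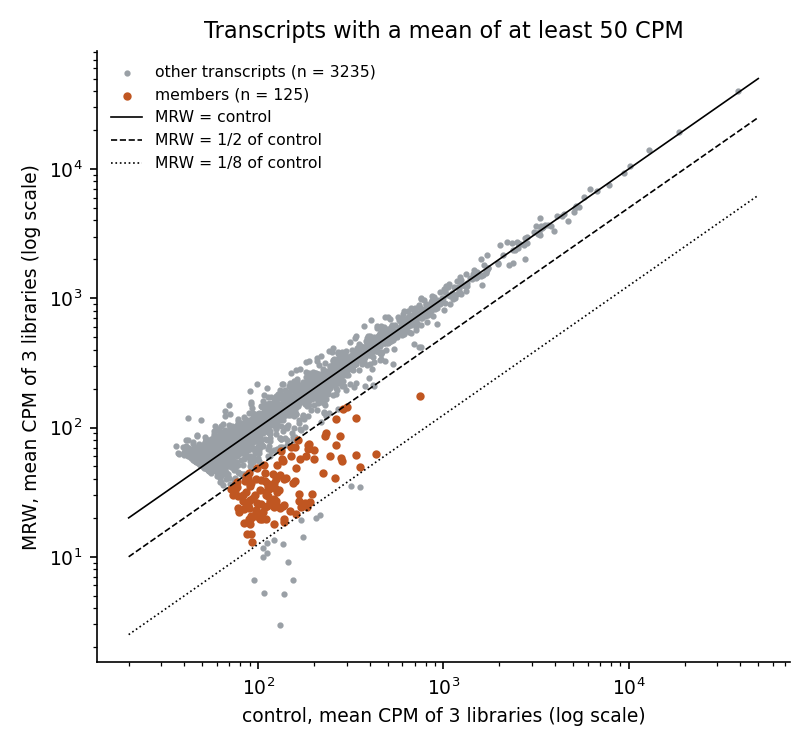
Mean CPM in MRW against mean CPM in control for the 3360 transcripts with a mean of at least 50 CPM, both axes on a log scale, with lines at equal levels and at 1/2 and 1/8 of control. The 125 members fill the band between the lower lines, where control means reach from 71.6 to 746 CPM.

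Such ratios were met less often at high abundance. In the class of 50 to 100 CPM, 92 of 1715 transcripts (5.36%) met the criteria on ratio and separation. In the class of 100 to 200 CPM it was 27 of 856 (3.15%), and from 200 to 500 CPM 6 of 523 (1.15%). None of the 266 transcripts with a mean of 500 CPM or more did so. Below the limit of the rule the shares were close to that of the lowest member class, at 5.76% of 6183 transcripts from 10 to 50 CPM and 5.51% of 3596 from 1 to 10 CPM. The mean that defines these classes includes the MRW libraries, so a transcript with a low ratio is placed lower than its control level alone would place it. By control level alone the members had a median of 120 CPM, against 99.7 CPM for the other 3235. The rule itself favours this order. With a low ratio, a transcript reaches a mean of 50 CPM only if its control level lies above 50 CPM. The other transcripts have no such floor, so the medians cannot show where the members stand among abundant transcripts. The mean control level of the members ran from 71.6 to 746 CPM, with quartiles of 92.0 and 165 CPM, and 18 of them exceeded 200 CPM in control.

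**Figure D3:**
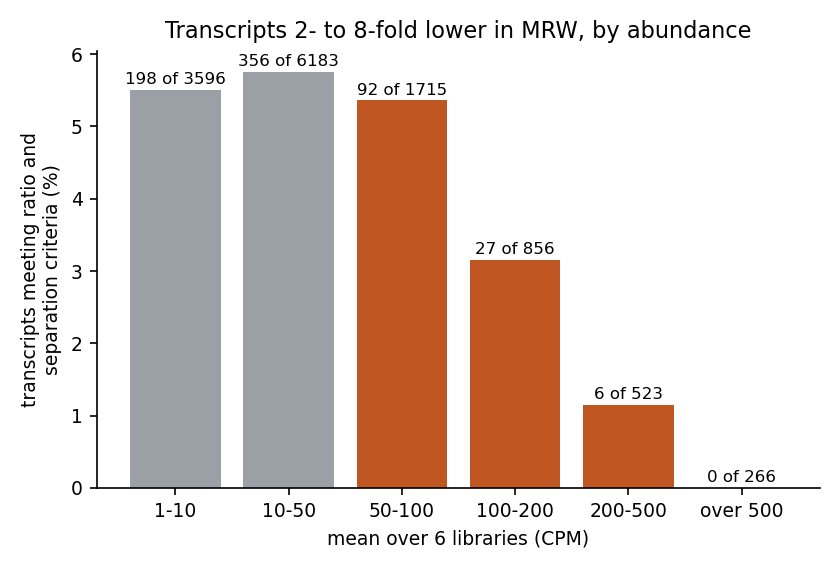
Share of transcripts, in percent, whose ratio of MRW to control was above 1/8 and at most 1/2 with groups that did not overlap, by class of mean CPM over the 6 libraries. Orange bars are classes from 50 CPM upwards, and grey bars are classes below 50 CPM. The share is 5.36% at 50 to 100 CPM and 0 above 500 CPM.

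Order of abundance changed accordingly. Ranked over all 14140 transcripts, the median member stood at place 1392 in control and at place 4718 in MRW. The first 1000 places held 32 members in control and 1 in MRW. In MRW, 30 of the 125 members still had a mean of 50 CPM or more. Members therefore passed the limit on abundance mainly through their control libraries, and all 125 had at least 50 CPM in each control library.

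Ratios among the members covered the permitted range. The median ratio was 0.286, that is a 3.50-fold lower level in MRW, with quartiles of 0.205 and 0.387. On the log2 scale the median was -1.81, against 0.04 for the other 3235 transcripts, and the median standard error of a member was 0.11 (3 against 3 libraries). Ratios between 1/8 and 1/4 were found in 52 members, between 1/4 and 1/3 in 29 and between 1/3 and 1/2 in 44. In 105 members even the lowest control value was at least 2-fold above the highest MRW value. Across members that quotient had a median of 2.77 and ran from 1.65 to 6.94.

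The largest absolute difference belonged to transcript_HQ_Ld3_vu_transcript2926/f2p0/3645, a sequence of 3645 bases with 2 full-length reads. Its control values were 802, 780 and 658 CPM, and MRW replicates 1 to 3 had 133, 197 and 193 CPM. All control values lay more than 3-fold above every MRW value, and within MRW replicate 1 was the low one. Its means were 746 ± 77.5 and 174 ± 35.7 CPM (SD, n = 3), a log2 ratio of -2.10 with a standard error of 0.20. It was the most abundant member in both groups, at place 153 of all transcripts in control and place 915 in MRW.

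Next came transcript_HQ_Ld3_vu_transcript5730/f2p0/2816, of 2816 bases and also with 2 full-length reads. Its values were 431, 366 and 499 CPM in control and 71.1, 55.4 and 61.2 CPM in MRW. Here the ratio was 0.145 (log2 -2.79, standard error 0.17), and within MRW replicate 1 was the high one. Both transcripts had counts with decimals, as happens when reads are divided among sequences that resemble each other.

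The 6 members with the next largest differences were shorter, at 550 to 1224 bases. One of 946 bases with 32 full-length reads stood at 336, 365 and 365 CPM in control and at 61.9, 44.2 and 42.1 CPM in MRW. One of 1224 bases, with whole counts in every library, had 332, 340 and 335 CPM in control and 72.7, 60.8 and 51.1 CPM in MRW. The control libraries of this transcript agreed within 1.30% (coefficient of variation, n = 3), whereas its MRW libraries varied by 17.6%. A transcript of 1035 bases, again with 32 full-length reads, had 273, 288 and 285 CPM in control and 63.7, 50.6 and 50.5 CPM in MRW. It shared with the previous ones a tight control group and a high MRW replicate 1.

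Of the same 6, the transcript of 550 bases had whole counts and stood at 296, 249 and 299 CPM in control against 61.1, 62.7 and 49.0 CPM in MRW. The transcript of 894 bases carried 84 full-length reads, the most of any member, and had 348, 364 and 305 CPM in control and 136, 111 and 109 CPM in MRW. Its ratio of 0.350 was the mildest of the 6. The transcript of 690 bases had 260, 247 and 272 CPM in control and 44.0, 39.4 and 38.4 CPM in MRW, for a ratio of 0.157. Together the 10 largest differences made up 21.6% of the summed difference between the group means of all members, so the loss was spread over many transcripts.

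Levels per length gave another order. In the deposited FPKM, which relates fragments to transcript length and library total, the member of 550 bases had a mean of 963 ± 92.5 in control and 195 ± 25.4 in MRW (SD, n = 3), the highest of the 8 members above. The member of 3645 bases, first by CPM, had 220 ± 23.0 FPKM in control and 51.4 ± 10.6 in MRW. Over all members and libraries FPKM ran from 14.3 to 1378 in control and from 3.30 to 607 in MRW.

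The lowest ratio of any member, 0.132, was that of a transcript of 2877 bases with 2 full-length reads. It had 180, 191 and 182 CPM in control and 25.9, 22.1 and 24.6 CPM in MRW. The next lowest, at 0.134, was also the shortest member, with 437 bases, and stood at 164, 141 and 175 CPM in control and 21.1, 19.9 and 22.9 CPM in MRW. The third, of 1094 bases, had a ratio of 0.135, with 133, 134 and 147 CPM in control and 23.4, 18.2 and 14.0 CPM in MRW. All of these carried decimals in their counts. Just outside the limit of 1/8 lay transcripts of 469 and 790 bases, with ratios of 0.116 and 0.113.

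At the mild end, the transcripts of 700, 520 and 1496 bases had ratios of 0.497, 0.496 and 0.495. The one of 520 bases had 92.8, 84.7 and 90.6 CPM in control and 45.5, 44.1 and 43.1 CPM in MRW. Just outside lay 2 transcripts, of 594 and 686 bases, both with a ratio of 0.5002. The latter was more abundant than most members, with 430, 411 and 419 CPM in control and 207, 221 and 202 CPM in MRW, so the limit of 1/2 parts transcripts that are alike in ratio.

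Near the limit of 50 CPM, the least abundant members had means of 50.3 and 50.8 CPM, and the first transcripts left out had 49.99 and 49.98 CPM. One transcript met the limits on abundance and ratio but had overlapping groups. Its 2496 bases gave 70.9, 140 and 35.9 CPM in control and 44.9, 0.0569 and 43.5 CPM in MRW, with decimals in its counts. The members with the narrowest gap, of 512 and 503 bases, still had a lowest control value 1.65 and 1.71 times their highest MRW value.

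Other features that the rule did not use were close to those of abundant transcripts in general. Median length was 1051 bases for members, with quartiles of 741 and 1448, and 1039 bases for the other 3235 transcripts, with quartiles of 730 and 1556. By length, 3 of 140 transcripts up to 500 bases (2.14%) were members, 48 of 1438 from there to 1000 bases (3.34%), 61 of 1377 up to 2000 bases (4.43%) and 13 of 405 above 2000 bases (3.21%). Counts were whole in all 6 libraries, within 0.005, for 58 members (46.4%) and for 47.0% of the others. Members thus made up 3.67% of the abundant transcripts with whole counts and 3.76% of those with decimals. All but 1 of the members were labelled high quality (HQ) in their identifiers, and of the others 8 were not.

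Full-length reads were somewhat fewer. The median was 4 for members and 5 for the others, and 28.0% of members rested on 2 reads, against 22.4% of the others. Members made up 4.61% of the abundant transcripts with 2 reads, 3.97% of those with 3 to 10 and 2.35% of those with over 10. The share with 2 reads was 28.1% in abundant transcripts with separated groups and a ratio above 1/2 and at most 0.8. It was 40.2% in those of 10 to 50 CPM with the members' ratio and separation. Within the group, the members with 2 reads had a median log2 ratio of -2.11, those with 3 to 10 reads -1.80 and those with over 10 reads -1.52. Across single members the rank correlation of log2 ratio with read number was weak (Spearman 0.13). Which scales the full-length reads came from is not given in the sources used here.

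Decimals in the counts went with lower ratios. The 67 members with decimals had a median log2 ratio of -2.01 and the 58 with whole counts -1.69. Of the members between 1/8 and 1/4, 34.6% had whole counts. The share was 55.2% between 1/4 and 1/3 and 54.5% between 1/3 and 1/2, so only the lowest class stood apart. Beyond the members, none of the 18 abundant transcripts with a ratio of at most 1/8 (0.536% of 3360) had whole counts in all libraries. The role of reads shared between similar sequences was not tested.

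Among transcripts with whole counts, the most abundant members in control were those of 1224 and 550 bases given above and one of 576 bases. The last stood at 235, 217 and 249 CPM in control and at 90.4, 94.0 and 89.9 CPM in MRW. Its MRW libraries lay close together, at 91.4 ± 2.25 CPM (SD, n = 3), and none of them stood out.

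Reading the contrast in libraries that had no part in the choice left the ratios nearly as low. For each of the 9 pairs of a control and an MRW library, the rule was applied to the other 4 libraries and the pair was read afterwards. This chose 122 to 132 transcripts, of which 116 to 122 were among the 125 members. In the pair left out, 83.3% to 96.0% of the chosen transcripts had an MRW value of at most 1/2 of control. For all transcripts with a mean of at least 50 CPM in the 4 libraries used, that share was 3.95% to 5%, or 4.46% over all 9 pairs. The median log2 ratio of the chosen transcripts in the pair left out averaged -1.80 over the 9 pairs, against 0.02 to 0.06 for all transcripts of that abundance. In 7 of the 9 pairs every chosen transcript was lower in the MRW library left out, and in both of the others 1 transcript was higher. The 9 pairs reuse the same 6 libraries, and with 1 library a group no test applies.

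**Figure D4:**
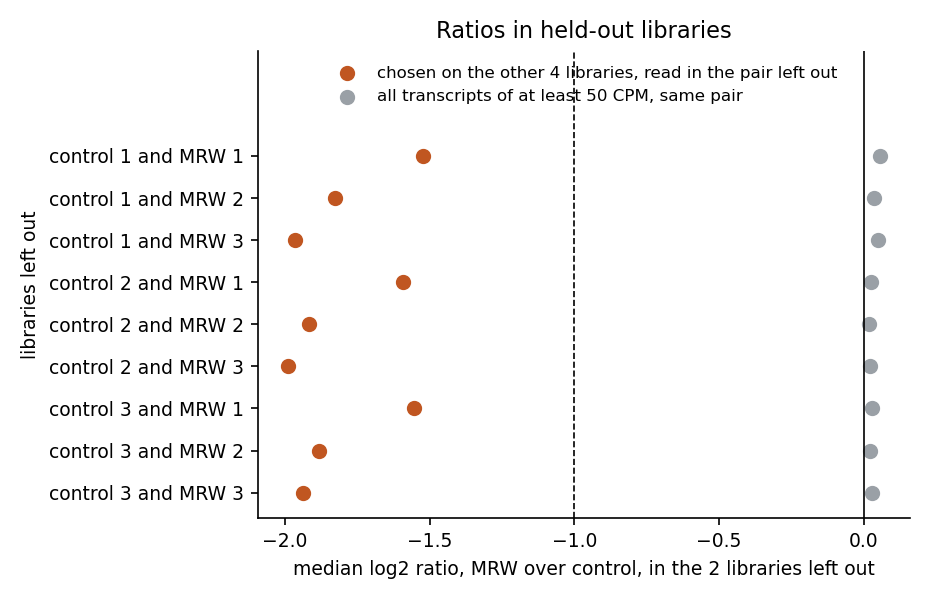
Median log2 ratio of MRW over control in the 2 libraries left out, for transcripts chosen on the other 4 libraries (orange) and for all transcripts with a mean of at least 50 CPM there (grey). The solid line marks equal levels and the dashed line 1/2. Orange points lie between -1.99 and -1.52, highest in the 3 pairs with MRW replicate 1.

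Held-out ratios depended on which MRW library was read. The median log2 ratio was -1.52, -1.59 and -1.55 in the pairs with MRW replicate 1. It was -1.83, -1.92 and -1.88 with MRW replicate 2, and -1.96, -1.99 and -1.94 with MRW replicate 3. The control library made little difference within each of these sets.

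The same order was seen member by member. MRW replicate 1 was the highest MRW library in 99 of the 125 members (79.2%) and in 43.8% of the other 3235 transcripts. MRW replicate 3 was the lowest in 87 members (69.6%) and in 27.2% of the others. The full order of replicate 1 above 2 above 3 held in 74 members (59.2%), against 18.4% of the others. The rule fixes how the MRW libraries lie below control, not their order among themselves. Totals of MRW replicates 1 to 3 were 25031246, 22154105 and 27073860 estimated counts, and the role of depth in this order was not tested.

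In size, MRW replicate 1 exceeded the mean of MRW replicates 2 and 3 by a median log2 of 0.22 in the members and of 0.01 in the others. It lay above that mean in 107 of the 125 members and in 1725 of the other 3235 transcripts. The median was 0.27 for ratios between 1/8 and 1/4, 0.34 between 1/4 and 1/3 and 0.12 between 1/3 and 1/2. It was 0.04 in the 196 abundant transcripts with separated groups and a ratio above 1/2 and at most 0.8. Less abundant transcripts with the same ratio and separation (356 with a mean of 10 to 50 CPM) had a median of 0.25. The 18 abundant transcripts with a ratio of at most 1/8 had 0.24. Both sets sit on the same side as the members, so the pattern was not particular to them.

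**Figure D5:**
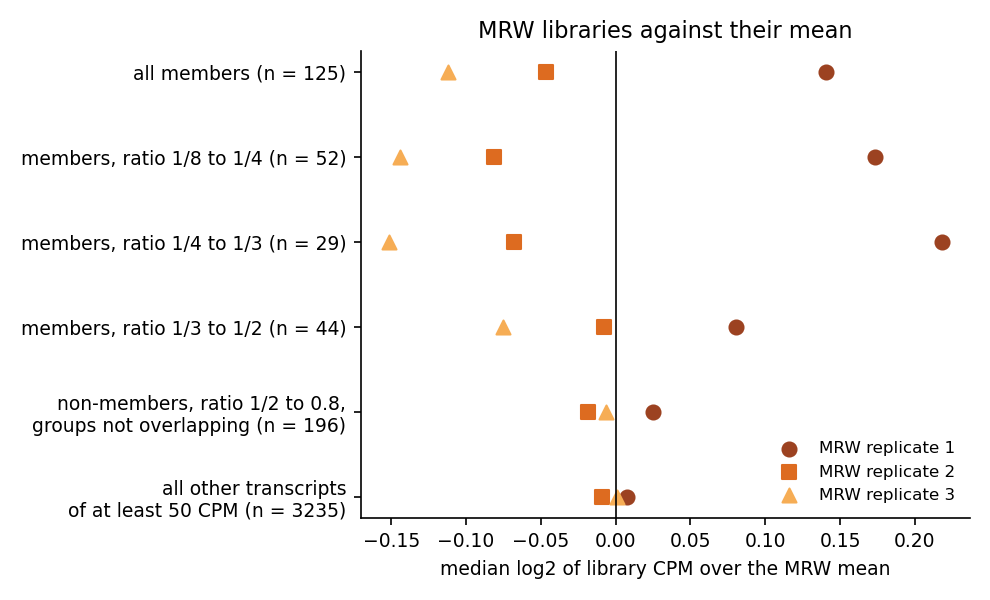
Median log2 of the CPM in each MRW library over the mean of the 3 MRW libraries, for the members, for the members by ratio, and for non-members with a mean of at least 50 CPM. Replicate 1 is at 0.14 and replicate 3 at -0.11 for all members, whereas all 3 libraries lie within 0.01 of 0 for the other 3235 transcripts.

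Choosing the members without the MRW library that was then read gave the same picture. MRW replicate 1 lay above the mean of the other MRW libraries in 126 of 147 transcripts chosen without it (85.7%), with a median log2 of 0.22. MRW replicate 2 did so in 50 of 151 (33.1%), with a median of -0.06, and MRW replicate 3 in 17 of 148 (11.5%), with a median of -0.18. For the remaining abundant transcripts the medians were 0.01, -0.01 and 0.00, and the shares above that mean were 52.9%, 43.2% and 50.1%. The control libraries, treated likewise, had medians of -0.05, 0.00 and 0.00 for replicates 1, 2 and 3. For the remaining abundant transcripts these were -0.03, 0.01 and -0.004. What set MRW replicate 1 apart in these transcripts was not tested.

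The MRW libraries also differed more among themselves in the members than in abundant transcripts in general. The median coefficient of variation of the members was 6.88% among control libraries and 10.7% among MRW libraries. The other abundant transcripts had 7.18% and 4.78%. At a like level, 2433 non-members with an MRW mean between the members' quartiles (24.5 and 48.4 CPM) had 6.05% in MRW. Counting error alone would give 3.51% for the members and 3.48% for these non-members. In 88 members (70.4%) the MRW libraries varied more than the control libraries, against 31.6% of the other abundant transcripts. This too was not particular to the members. The 356 transcripts of 10 to 50 CPM with the same ratio and separation had 7.56% in control and 14.0% in MRW. The 18 abundant transcripts with a ratio of at most 1/8 had 6.92% and 17.4%. In the 196 with separated groups and a ratio above 1/2 and at most 0.8, it was 7.04% and 5.81%.

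Single members ranged widely in this respect. The tightest was a transcript of 837 bases with 155, 143 and 152 CPM in control and 61.9, 60.7 and 58.8 CPM in MRW. Another tight one, of 1376 bases, had 88.7, 93.7 and 89.7 CPM in control and 18.3, 18.1 and 17.0 CPM in MRW. The latter combined a ratio of 0.197 with MRW libraries that lay close together. The widest was a transcript of 3911 bases with 127, 81.3 and 122 CPM in control and 12.1, 16.8 and 30.3 CPM in MRW. Its MRW libraries varied by 47.9% and ran opposite to most members, with replicate 3 the highest. Next widest was one of 850 bases, with 94.3, 104 and 118 CPM in control and 27.3, 16.5 and 15.2 CPM in MRW.

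The order of MRW libraries was less uniform in the long members. MRW replicate 1 was highest in 36 of the 51 members up to 1000 bases (70.6%, against 38.3% of the other abundant transcripts of that length). From there to 2000 bases it was highest in 56 of 61 (91.8%, against 51.4%), and above 2000 bases in 7 of 13 (53.8%, against 39.3%). Replicate 1 was the lowest MRW library in 4 of the 13 members above 2000 bases (30.8%, against 36.7% of the other abundant transcripts of that length). Of the 5 members over 3000 bases, a limit set after the values were seen, 3 had their lowest MRW value in replicate 1. These were the transcripts of 3645 and 3911 bases and one of 3669 bases, which had 262, 248 and 222 CPM in control and 48.8, 59.3 and 73.8 CPM in MRW. All of these had counts with decimals. The longest member, of 4615 bases with whole counts, had 71.0, 85.0 and 62.5 CPM in control and 29.0, 33.5 and 26.9 CPM in MRW, with replicate 2 highest in both groups.

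Among control libraries the members up to 2000 bases were ordered much like other abundant transcripts of their length. Control replicate 2 was the lowest control library in 38 of the 51 members up to 1000 bases (74.5%) and in 73.9% of the other abundant transcripts of that length. From there to 2000 bases it was the highest in 45 of 61 members (73.8%) and in 75.8% of the others. Above 2000 bases the shares lay further apart, with control replicate 2 highest in 9 of 13 members (69.2%) and in 90.8% of the others, and control replicate 3 lowest in 6 members (46.2%) and in 294 of the other 392 transcripts. Removing a length trend from each library moved the median log2 ratio of the members from -1.81 to -1.86. Long members moved further, from -2.79 to -3.09 at 2816 bases, -2.92 to -3.21 at 2877 and -1.29 to -1.57 at 4615. The first 2 of these then lay beyond the limit of 1/8. The short member of 550 bases went from -2.29 to -2.27. Without this removal, the other abundant transcripts had a median log2 ratio of 0.27 above 2000 bases and -0.01 up to 1000 bases.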

How the data were processed

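The deposited table gives, for each of 14140 transcripts, a length and, per library, an estimated count and an FPKM value. The estimated counts were deposited by the authors without normalization, and FPKM is the authors' own scaling to length and depth, per the file headers. Subread is named in the submitters' processing notes, with no role or version. The design text names the soybean genome as alignment target although the rows are lily transcripts, so the reference, like the counting program and its use of strand, is not given in the sources used here.

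CPM was the estimated count times 1000000 over the column total, without rounding. The ratio used a pseudocount of 0.1 CPM. Means ± SD cover 3 libraries a group, and standard errors of log2 ratios came from log2 CPM. Counting error was taken as the inverse square root of the mean count. No test was run, since the choice used the contrast itself. The members and lists were chosen with earlier results of these data known. No gene list or cell type marker could be matched. Of 20 named members, identifiers are printed for the 2 largest differences in mean CPM. The others were taken by the next 6 differences, the 3 lowest and 3 highest ratios, extremes of length, full-length reads and spread, and control level among whole counts; members over 3000 bases were singled out after their values were seen. Scaling factors (TMM, upper quartile, RLE) came from edgeR 4.0.16 in R 4.3.3 on rounded counts, and the length trend was a loess fit of span 0.3 on log2 length. Other values came from Python 3.11.15 with pandas 2.3.3. The rule was tested on simulated data. No per-sample column was left unused.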

Additional observations from a re-analysis of the deposited data

How the results depend on the processing

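The number of members (125) was 306 with a mean of at least 25 CPM and 33 with at least 100 CPM, by construction of these limits. It stayed between 107 and 151 under the other 17 settings, which were TMM, upper quartile and RLE factors, removal of a length trend, pseudocounts of 0 and 1, FPKM, rounded counts, group medians, overlap allowed, no limit at 1/8 and each library left out. Leaving out a library gave 107 (without control replicate 1) to 151 (without MRW replicate 2). TMM and RLE factors each gave 143, of which 124 were among the 125. Over 13139 transcripts with a mean of at least 1 CPM the median log2 ratio was 0.10 with column totals, 0.02 with TMM, 0.01 with RLE, 0.13 with upper quartile factors and 0.00 with the length trend removed. Separated abundant transcripts numbered 452 lower and 1000 higher with upper quartile factors, 784 and 467 with RLE, and 784 and 657 with the length trend removed, a comparison added after seeing the data. The median log2 ratio of the members (-1.81) was -2.01 in those with decimals; the cause was not tested. It lay between -1.91 and -1.69 in the other 14 settings, and between -1.91 and -1.74 with a library left out. The ratio in held-out libraries (mean -1.80) ran from -1.99 (control replicate 2 and MRW replicate 3) to -1.52 (control replicate 1 and MRW replicate 1). The excess of MRW replicate 1 was 0.19 to 0.22 under 7 settings, all chosen after seeing the data. The 20 named members kept their direction in 260 of 260 values, the highest being -0.95. The rule largely fixed this outcome, since every member has all MRW values below all control values. It is thus no check on the members. No paired analysis was possible because no test was run, and the labels do not say what libraries of the same number share. The spread was at or below counting error in 9 members among MRW libraries and in 4 among control libraries. Differences between the replicates of these were thus no larger than counting error alone would give.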
